A study of Mus musculus with 12 samples.

Results

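The hemoglobin and red cell genes examined in these teratomas were 9 of the 38986 genes listed in each library, and all 9 were found by their symbols. They were the embryonic globins *Hba-x*, *Hbb-y* and *Hbb-bh1*, the adult globins *Hba-a1*, *Hba-a2*, *Hbb-bs* and *Hbb-bt*, the heme synthesis gene *Alas2* and the membrane gene *Slc4a1*. The teratomas were tumors grown from R1 mouse ES cells, and each of the 12 libraries held the RNA of a teratoma sample. The ES cells carried an overexpression construct in the pEZ-LV235 vector with a CAG promoter, which was empty in ET (the control) and held WT Dnmt3L or its K238R or K412R mutant in the other groups, with 3 libraries per group. In all groups, the ES cells had been grown in serum medium with LIF (100 IU/ml), which keeps them undifferentiated, and 5000000 cells were injected under the skin of immunodeficient male mice of the NOD-Prkdc EM1 strain, 8 weeks old, and tumors were taken for RNA at day 21. Whether a line was 1 clone was not given in the sources used here. Transcripts of host mouse and tumor cells, blood included, were counted together and cannot be told apart.

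Hemoglobin is assembled from alpha-like and beta-like globin chains, and both gene clusters switch during development. Primitive red cells, which arise first in the yolk sac, use *Hba-x* (zeta globin), *Hbb-y* (epsilon y globin) and *Hbb-bh1* together with the adult alpha genes, whereas definitive red cells of fetal liver and adult marrow use *Hba-a1* and *Hba-a2* with *Hbb-bs* and *Hbb-bt*. *Alas2* encodes the red cell form of the enzyme that starts heme synthesis, and *Slc4a1* encodes band 3, the anion exchanger of the red cell membrane. Young red cells in the circulation still hold some of these transcripts after the nucleus has been lost, so that the RNA of a vascularized tissue can contain them without local red cell formation.

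Promoter sequence was available in the RefSeq table (GRCm38.p6) for 7 of the 9 genes, all but *Hbb-bh1* and *Slc4a1*. The 250 bases before the transcription start are shown for 5 of them, 2 embryonic globins, an adult alpha and an adult beta globin, and *Alas2*, because the levels of the last 3 were correlated across the libraries and their correlations with the first 2 did not pass the test. The windows were chr11:32276350-32276599 on the plus strand for *Hba-x*, chr7:103853208-103853457 on the minus strand for *Hbb-y*, chr11:32283422-32283671 on the plus strand for *Hba-a1*, chr7:103827929-103828178 on the minus strand for *Hbb-bs* and chrX:150547167-150547416 on the plus strand for *Alas2*. Capitals mark the GATA motif (GATAA), the CACC box (CACCC), the CCAAT box and the TATA box (TATAA), each searched on both strands, and where matches overlap the capitals run on.
Hba-x: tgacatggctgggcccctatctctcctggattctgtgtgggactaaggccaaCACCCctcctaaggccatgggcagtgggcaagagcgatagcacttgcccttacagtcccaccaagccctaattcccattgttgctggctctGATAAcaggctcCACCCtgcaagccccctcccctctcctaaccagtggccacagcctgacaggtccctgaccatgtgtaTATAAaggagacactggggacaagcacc
Hbb-y: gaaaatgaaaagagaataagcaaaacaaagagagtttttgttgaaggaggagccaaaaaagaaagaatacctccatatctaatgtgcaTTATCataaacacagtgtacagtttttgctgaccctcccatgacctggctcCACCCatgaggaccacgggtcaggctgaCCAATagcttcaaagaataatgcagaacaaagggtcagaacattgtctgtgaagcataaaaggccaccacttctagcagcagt
Hba-a1: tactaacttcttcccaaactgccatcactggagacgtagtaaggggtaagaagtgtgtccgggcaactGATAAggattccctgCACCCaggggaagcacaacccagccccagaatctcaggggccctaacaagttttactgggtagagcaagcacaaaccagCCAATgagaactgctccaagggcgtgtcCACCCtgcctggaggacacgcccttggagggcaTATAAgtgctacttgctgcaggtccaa
Hbb-bs: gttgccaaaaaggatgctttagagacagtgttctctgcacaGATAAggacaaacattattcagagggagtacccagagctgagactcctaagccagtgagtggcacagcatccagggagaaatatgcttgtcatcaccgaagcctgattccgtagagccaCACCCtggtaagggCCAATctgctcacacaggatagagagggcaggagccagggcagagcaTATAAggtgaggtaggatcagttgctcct
Alas2: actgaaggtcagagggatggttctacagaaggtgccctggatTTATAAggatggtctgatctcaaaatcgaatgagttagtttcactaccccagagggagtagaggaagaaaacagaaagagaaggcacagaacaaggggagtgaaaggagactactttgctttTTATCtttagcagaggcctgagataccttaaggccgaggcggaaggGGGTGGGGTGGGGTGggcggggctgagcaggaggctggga
All 7 windows held GATAA, the core of the motif bound by GATA factors, against 23.0% of the 27025 promoter windows of the same length. All 7 also held CACCC, the core of the motif bound by Klf1, against 51.3%. CCAAT was found in *Hbb-y*, *Hba-a1*, *Hba-a2*, *Hbb-bs* and *Hbb-bt* (34.5% of all windows) and TATAA in each of the 7 but *Hbb-y* (23.5% of all windows). The nearest TATAA on the gene's own strand lay 27 to 30 bases before the start in the globins that held it, but 207 bases before it in *Alas2*. A match is only a run of letters and not a measured binding site.

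The adult copies were hard to tell apart in sequence. The coding sequences of *Hba-a1* and *Hba-a2* differed at 1 of 429 bases and those of *Hbb-bs* and *Hbb-bt* at 1 of 444, and both pairs encoded identical proteins. Of the 100-base windows of the *Hba-a2* transcript, the length of a read, 74.5% also occurred in *Hba-a1*, and 54.8% of those of *Hbb-bt* occurred in *Hbb-bs*. The split of counts within each pair is therefore uncertain, and sums are given beside the single genes. No 100-base window was shared between an embryonic and an adult globin.

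Library totals were between 16957677 and 18546100 counts, and levels are given as CPM, the count scaled to the library total, at which 3 counts correspond to about 0.17 CPM. All 12 pairs of replicates differed by more than counting noise (chi-square 10.5 to 52.6 per degree of freedom). The labels were checked with *Dnmt3l*, whose mean and SD over 3 libraries were 3.49 ± 3.66 CPM for ET, 191 ± 22.2 for WT, 1.18 ± 0.675 for K238R-labelled libraries and 34.4 ± 7.29 for K412R. The transcript in K238R-labelled libraries was thus no higher than in the control, and these 3 libraries are called by their label throughout. Differences were tested with edgeR's quasi-likelihood test over the 18405 genes that passed its filter on low counts, with Benjamini-Hochberg adjustment over all of them and a threshold of 0.05. The replicates are separate samples by their labels, and the tests set differences between groups against the spread between replicates. The paper describes stable lines for the constructs, and effects of construct and of line cannot be told apart here.

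Embryonic globin transcripts were nearly absent from most teratomas. The 3 genes together had 249 counts in the 12 libraries, against 145730 counts for the 4 adult globins. *Hba-x* was counted 5, 3 and 16 times in ET, 3, 2 and 74 times in WT, 16, 1 and 11 times in K238R-labelled libraries and 8, 8 and 3 times in K412R. *Hbb-y* was counted 1, 2 and 11 times in ET, 0, 1 and 48 times in WT, 5, 0 and 4 times in K238R-labelled libraries and 1, 0 and 0 times in K412R. *Hbb-bh1* never exceeded 9 counts in a library, and 3 libraries had none. A single library, WT replicate 3, was highest for all 3 genes, and it held 131 of the 249 embryonic counts. The next highest for *Hba-x* and *Hbb-y* was ET replicate 3. A count of 0 allows up to 3 counts, so that the transcripts were undetected in those libraries rather than shown to be absent.

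In CPM, the summed embryonic globins were 0.749 ± 0.748 in ET, 2.64 ± 4.19 in WT, 0.831 ± 0.580 in K238R-labelled libraries and 0.449 ± 0.201 in K412R (SD, n = 3 each). The SD exceeded the mean in WT, where replicates 1 and 2 had 5 and 3 counts, and the 4 groups overlapped. Of all counts on the 7 globins, the embryonic genes made up 0.139% ± 0.140 in ET, 0.227% ± 0.353 in WT, 0.184% ± 0.171 in K238R-labelled libraries and 0.0879% ± 0.00566 in K412R. The share reached 0.634% in WT replicate 3 (Wilson 95% interval 0.535 to 0.752%, which covers counting error only) and 0.0181% in WT replicate 2 (0.00617 to 0.0533%), a wider gap within WT than between the means of any groups. Without WT replicate 3 the mean share of WT was 0.0236%, without ET replicate 3 that of ET was 0.0596%, and without K238R-labelled replicate 3 that of its group was 0.0954%. In K238R-labelled replicate 3 the share was 0.362% (0.234 to 0.558%) on a low adult level, and in ET replicate 3 it was 0.298% (0.208 to 0.428%). The share in the beta genes alone followed the same order in these libraries, at 0.797% in WT replicate 3, 0.518% in K238R-labelled replicate 3 and 0.361% in ET replicate 3.

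**Figure D1:**
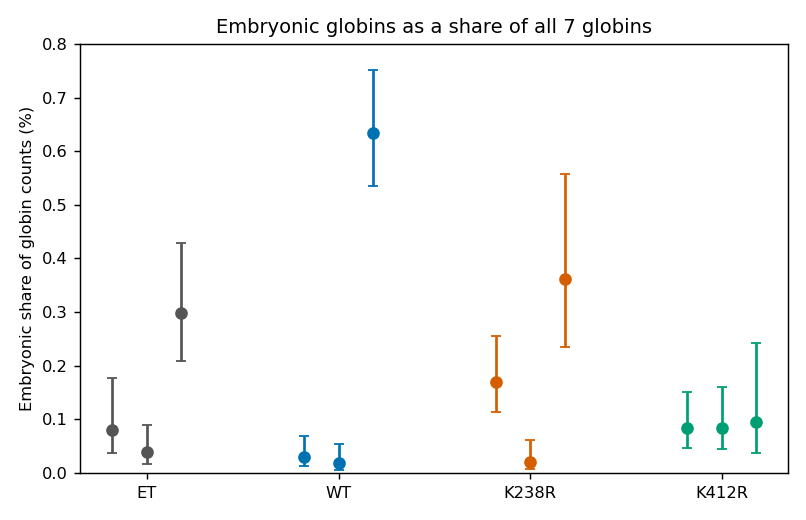
Embryonic globins (Hba-x, Hbb-y, Hbb-bh1) as a percent of the counts on all 7 globins in each library, by group in the order of replicates 1 to 3. Points are libraries and bars are Wilson 95% intervals, which cover counting error only; WT replicate 3 stands at 0.634% and every other library at or below 0.362%.

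The adult globins were present in every teratoma, and their levels were highest in WT. *Hba-a1*, to which most adult alpha counts were assigned, stood at 287, 549 and 337 CPM in ET, 647, 634 and 754 in WT, 462, 571 and 203 in K238R-labelled libraries and 510, 427 and 161 in K412R. *Hbb-bs*, to which most adult beta counts were assigned, stood at 101, 180 and 159 CPM in ET, 245, 224 and 304 in WT, 209, 175 and 75.3 in K238R-labelled libraries and 160, 138 and 59.2 in K412R. *Hbb-bt* stood at 29.5, 37.4 and 40.1 CPM in ET, 67.0, 57.6 and 100 in WT, 49.6, 47.5 and 18.6 in K238R-labelled libraries and 47.6, 33.9 and 15.1 in K412R. For these 3 genes every WT library lay above each of the other 9 libraries. How many of all genes have that pattern was not counted. Replicate 3 of K412R was the lowest of the 12 for all of them, and replicate 3 of K238R-labelled libraries was next to it. *Hba-a2* stood at 3.64, 6.13 and 2.34 CPM in ET, 8.04, 6.47 and 11.9 in WT, 7.17, 7.00 and 2.28 in K238R-labelled libraries and 6.18, 2.66 and 2.64 in K412R. Its WT libraries lay above those of ET and K412R, whereas they overlapped with K238R-labelled libraries.

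*Alas2* and *Slc4a1* followed the adult globins at lower levels. *Alas2* stood at 7.05, 8.67 and 6.28 CPM in ET, 13.2, 14.0 and 17.9 in WT, 8.03, 9.50 and 2.82 in K238R-labelled libraries and 9.36, 8.37 and 2.75 in K412R. All WT libraries again lay above the other 9, a pattern not counted over all genes. *Slc4a1* had only 3 to 45 counts in a library. It stood at 0.284, 1.36 and 1.28 CPM in ET, 2.19, 0.892 and 2.57 in WT, 0.917, 1.06 and 0.326 in K238R-labelled libraries and 0.780, 1.07 and 0.168 in K412R, and WT replicate 2 lay within the range of the other groups. In bulk RNA, fewer red cells and less RNA per red cell cannot be told apart.

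**Figure D2:**
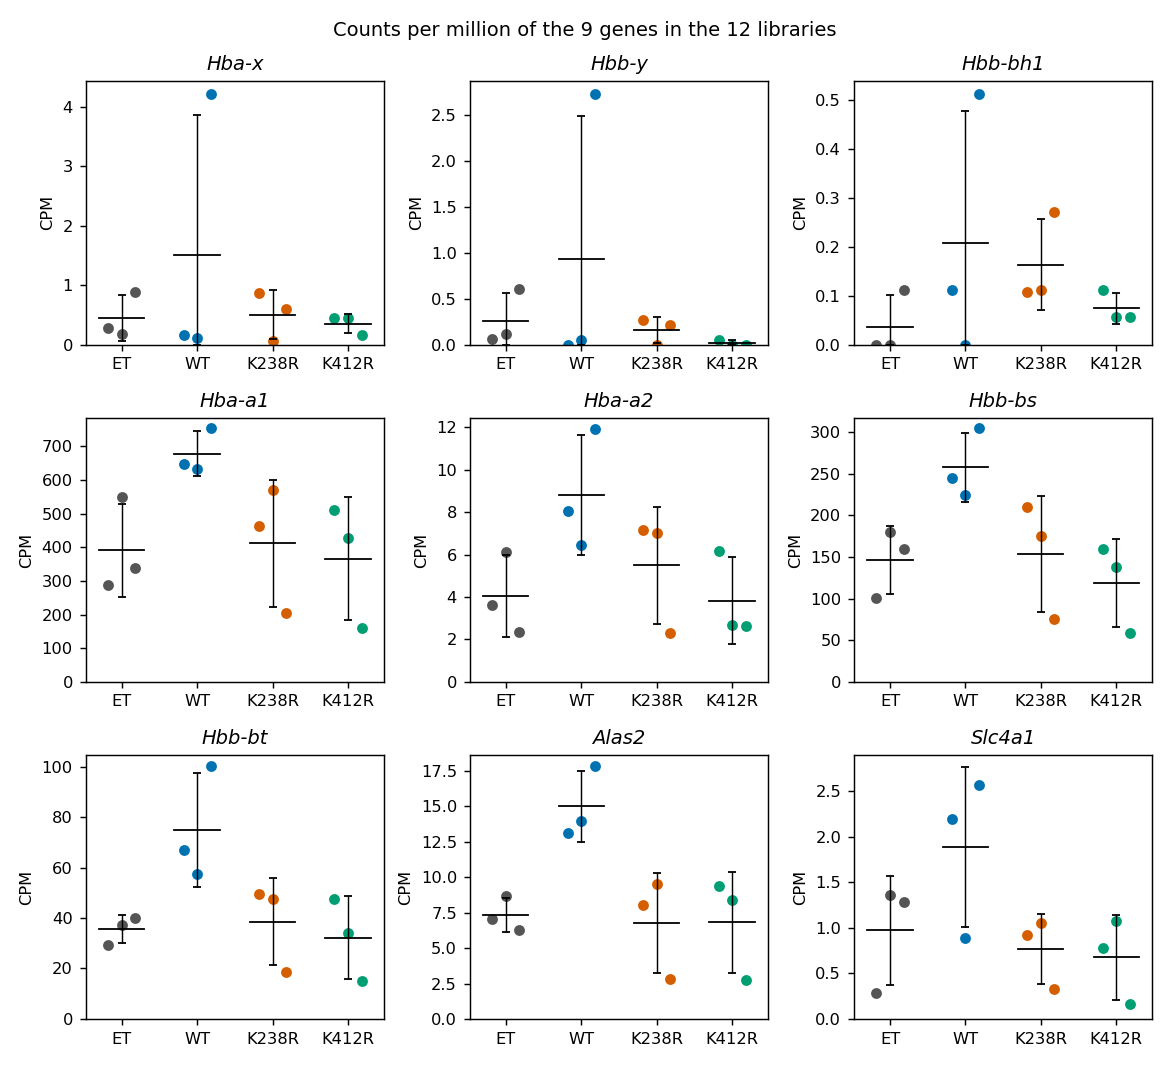
Level in CPM for each of the 9 genes, on an axis of its own starting at 0, in the 3 libraries of ET, WT, K238R-labelled libraries and K412R. Points are libraries (replicates 1 to 3 from left to right). The horizontal line is the mean and the bar is the SD (n = 3), drawn no lower than 0. The WT points lie above all others for Hba-a1, Hbb-bs, Hbb-bt and Alas2, a pattern not counted over all genes. The WT mean of the embryonic genes is set by 1 library.

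Levels per kilobase of coding length were used to set the genes in order. The places within each adult pair depend on how shared reads were divided between the copies. Coding length leaves out the rest of the transcript (429 of 801 bases coding in *Hba-x*, 2790 of 4545 in *Slc4a1*). The median over the 12 libraries was 1133 CPM per kb for *Hba-a1*, 376 for *Hbb-bs*, 98.6 for *Hbb-bt*, 14.4 for *Hba-a2* and 4.83 for *Alas2*, and each gene lay above the next in 12 of 12 libraries. Below *Alas2*, *Hba-x* followed with a median of 0.851 CPM per kb, lower than *Alas2* in 12 of 12 libraries. The last places were not separated by the spread over libraries, since *Hba-x* exceeded *Slc4a1* (0.353) in 8 of 12 libraries, *Slc4a1* exceeded *Hbb-bh1* (0.247) in 9 of 12 and *Hbb-bh1* exceeded *Hbb-y* (0.127) in 6 of 12.

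The balance among adult chains was similar in the 4 groups. Adult beta genes took 32.0% ± 4.53 of the adult globin counts in ET, 32.4% ± 2.02 in WT, 31.6% ± 3.91 in K238R-labelled libraries and 29.5% ± 1.54 in K412R (SD, n = 3 each), and the groups overlapped. *Hbb-bt* took between 17.2% and 24.8% of the adult beta counts in a library, and *Hba-a2* between 0.618% and 1.61% of the adult alpha counts. The alpha share of *Hba-a2* was low although its protein is the same as that of *Hba-a1*, and it is the value most exposed to the way reads were divided between the copies.

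The comparison of WT with ET asks how teratomas from cells with the WT Dnmt3L construct differed from those of the control. The summed adult globins were 1020 ± 133 CPM in WT and 577 ± 178 in ET (SD, n = 3 each). Of the 9 genes, 7 passed the filter on low counts (*Hbb-y* and *Hbb-bh1* did not), and none of the 7 passed the adjusted threshold with edgeR or DESeq2, against 0.0489% of all genes tested with edgeR and 10.5% with DESeq2. An unadjusted p under 0.05 was found for 3 of the 7, *Hba-a2*, *Hbb-bt* and *Alas2*, all higher in WT, which holds for 14% of all genes tested. The log2 fold change was 0.83 for *Hba-a1* (SE 0.44, adjusted p = 0.222), 0.84 for *Hbb-bs* (SE 0.41, adjusted p = 0.191), 1.10 for *Hbb-bt* (SE 0.43, adjusted p = 0.133) and 1.06 for *Alas2* (SE 0.46, adjusted p = 0.153). The libraries of WT lay above those of ET without overlap for 5 of the 7 genes, the 4 adult globins and *Alas2*, whereas this holds for 9.41% of all genes tested. The median log2 fold change of the 7 was 1.06, against -0.01 over all genes tested. *Hba-a2* (log2 fold change 1.16, SE 0.50, adjusted p = 0.152) passed the threshold when ET replicate 2 was left out (1.60, adjusted p = 0.0441), where the count of all genes passing was 5820 in place of 9; that count was 0 without ET replicate 1. *Hba-x* had a log2 fold change of 1.76 (SE 1.17, adjusted p = 0.320), which turned to -1.65 without WT replicate 3.

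The mutants were compared with WT to ask how their teratomas differed from those of WT, and both comparisons share the WT libraries with the one above. The summed adult globins were 609 ± 271 CPM in K238R-labelled libraries and 521 ± 253 in K412R. In K238R-labelled libraries, none of the 7 genes passed the adjusted threshold with edgeR or DESeq2 (0.174% of all genes with edgeR and 4.13% with DESeq2), and 2, *Hbb-bt* and *Alas2*, were lower at an unadjusted p under 0.05, as were 9.64% of all genes. Their log2 fold changes were -1.0 for *Hbb-bt* (SE 0.43, adjusted p = 0.258) and -1.18 for *Alas2* (SE 0.46, adjusted p = 0.221). *Hba-a1*, *Hbb-bs*, *Hbb-bt* and *Alas2* lay below WT without overlap (4 of 7, against 11.3% of all genes), and the median of the 7 was -1.0, against 0.00 over all genes. *Dnmt3l* in these libraries was at 10 to 35 counts, no higher than in the control, so that effects of the mutation and of the low transcript level cannot be told apart.

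In K412R, again none of the 7 passed the adjusted threshold with edgeR or DESeq2 (2.02% of all genes with edgeR and 9.26% with DESeq2), and 4 were lower at an unadjusted p under 0.05, as were 12.5% of all genes. These were *Hba-a2* (log2 fold change -1.22, SE 0.50, adjusted p = 0.178), *Hbb-bs* (-1.12, SE 0.41, adjusted p = 0.144), *Hbb-bt* (-1.23, SE 0.43, adjusted p = 0.130) and *Alas2* (-1.14, SE 0.46, adjusted p = 0.170). The 4 adult globins and *Alas2* lay below WT without overlap (5 of 7, against 16.6% of all genes), and the median of the 7 was -1.22, against 0.01 over all genes. *Dnmt3l* was also lower in K412R than in WT (log2 fold change -2.49, SE 0.49, adjusted p = 0.0330 with edgeR). Effects of the mutation and of the lower transcript level cannot be told apart here either. *Hba-x* was at -1.63 in K238R-labelled libraries (adjusted p = 0.454) and -2.09 in K412R (adjusted p = 0.316), and without WT replicate 3 these values turned to 1.78 and 1.31. *Hbb-y*, which passes the filter only in some fits, was called lower in K412R than in WT (-5.82, adjusted p = 0.0372) when ET replicate 2 and WT replicate 1 were both left out, where 48 of its WT counts came from 1 library.

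**Figure D3:**
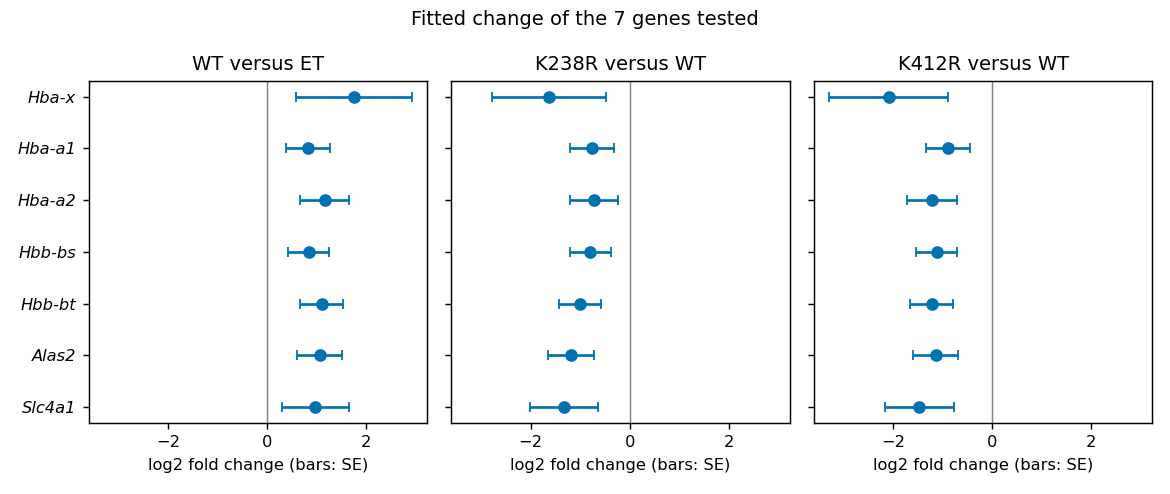
Log2 fold changes with their standard errors from edgeR's quasi-likelihood fit for the 7 genes that passed the filter, in WT against ET and in K238R-labelled libraries and K412R against WT. All 7 points lie above 0 in WT against ET and below 0 in both comparisons with WT, and none passed the adjusted threshold.

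Neither mutant was separated from the control by the 7 genes tested. None of the 7 passed the adjusted threshold with edgeR or DESeq2 in either comparison. Over all genes, 0% passed it with edgeR, and with DESeq2 0.0467% passed in K238R-labelled libraries and 0.506% in K412R. None of the 7 had an unadjusted p under 0.05 with edgeR, against 1027 and 1446 of all 18405 genes. The median log2 fold change of the 7 was 0.07 in K238R-labelled libraries and -0.12 in K412R, and their lowest adjusted p with edgeR was 0.838 and 0.880. The standard error of *Hba-a1* was 0.44 in both, and a p that misses the threshold does not show that the groups were alike.

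The adult globins varied together across the 12 libraries. Correlations of log2(CPM + 1) were computed for all 36 pairs of the 9 genes. All 6 pairs of adult globins passed a permutation test after Benjamini-Hochberg adjustment (Pearson's r between 0.83 and 0.97), and so did all 8 pairs of an adult globin with *Alas2* or *Slc4a1* (r between 0.68 and 0.96). With Spearman's rho in that test, *Slc4a1* did not pass with *Hba-a2* (rho = 0.52, adjusted permutation p = 0.189) or *Hbb-bt* (0.64, adjusted 0.0722). *Hba-a1* and *Alas2*, which lie on different chromosomes, had r = 0.96 (permutation p = 1e-05, the smallest possible, adjusted 7.2e-05) and Spearman's rho = 0.97 (permutation p = 1e-05, adjusted 0.00018). Without the libraries farthest from the median of *Hba-a1*, K238R-labelled replicate 3 and K412R replicate 3, r was 0.89. After the group means were subtracted, 3 of the 6 adult pairs and 5 of the 8 pairs with *Alas2* or *Slc4a1* passed. The near-identical copies share reads, which bears on 2 of the 6 adult pairs.

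No correlation between an embryonic and an adult globin passed the test. WT replicate 3 was the highest library for all 9 genes, embryonic and adult alike. The 12 pairs of an embryonic with an adult globin had r between 0.16 and 0.51, and without the farthest libraries r lay between -0.23 and 0.31. Among themselves, all 3 embryonic pairs passed (r between 0.83 and 0.96), and 1 of 3 did without the farthest libraries, so that this relation rests largely on WT replicate 3 and ET replicate 3. For *Hba-x* and *Hbb-y*, r was 0.96 (permutation p = 0.00015, adjusted 0.000771) and Spearman's rho 0.77 (permutation p = 0.0051, adjusted 0.0167). By rho, *Hbb-bh1* did not pass with *Hba-x* (0.51, adjusted permutation p = 0.202) or *Hbb-y* (0.26, adjusted 0.684). After subtraction of the group means, where rearrangements are fewer, none of the 3 passed after adjustment, although r was between 0.89 and 0.98.

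**Figure D4:**
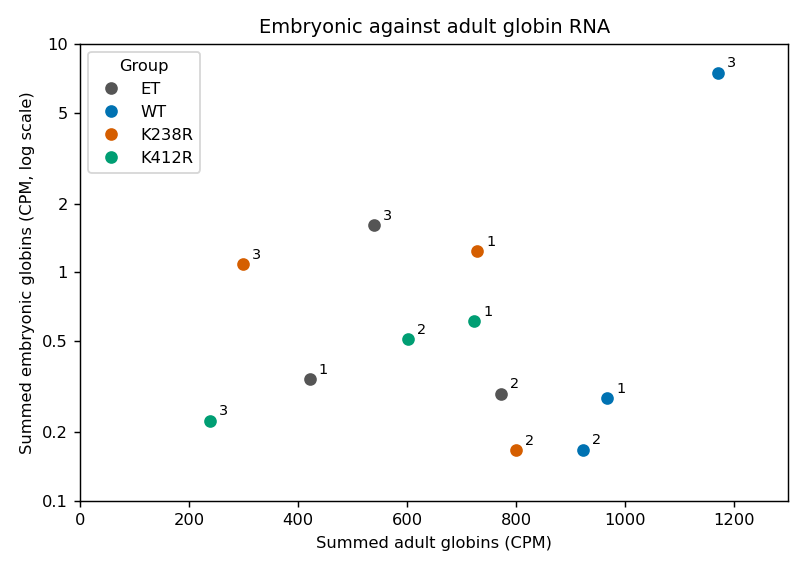
Summed CPM of the 3 embryonic globins (log axis) against that of the 4 adult globins in the 12 libraries, with replicate numbers beside the points. The adult sum is at or above 922 CPM in the 3 WT libraries and at or below 801 CPM in the other 9, and only replicate 3 of WT is also high in embryonic globins.

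**Figure D5:**
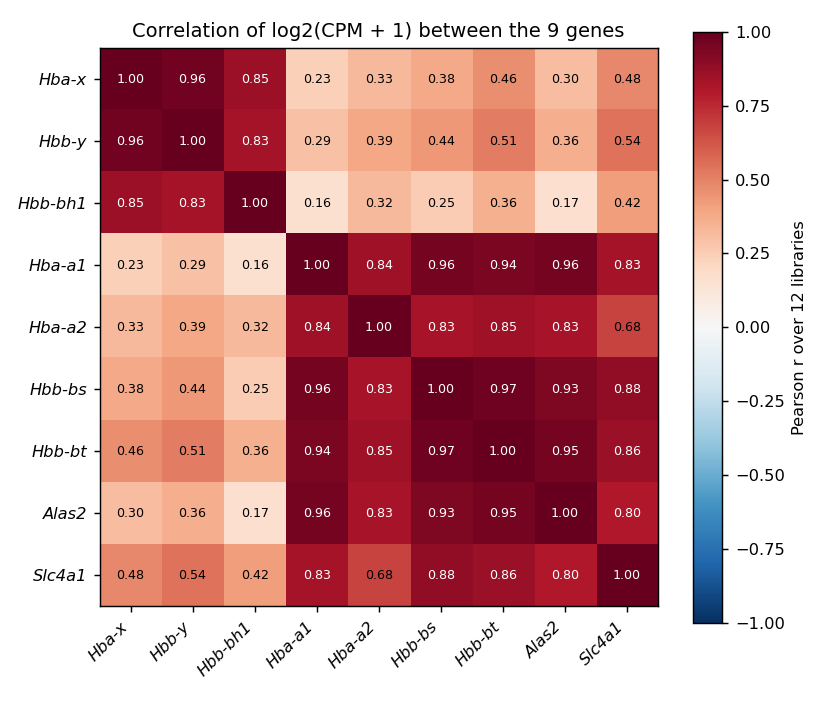
Pearson's r of log2(CPM + 1) over the 12 libraries for each pair of the 9 genes. The adult globins, Alas2 and Slc4a1 form a block between 0.68 and 0.97, the embryonic globins a block between 0.83 and 0.96, and the pairs that cross from embryonic to adult globins lie between 0.16 and 0.51.

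The genes whose level was most like that of the summed adult globins over the 12 libraries, among 18398 ranked, included *Thy1* (r = 0.89), *Gm15564* (0.86), *Spsb3* (0.84) and *Gm33777* (0.84). Those most like the summed embryonic globins were *Atl2* (0.87), *Rilp* (0.87), *Gm41902* (0.84), *Gm38667* (0.82) and *F830016B08Rik* (0.80), and r for the first 2 was 0.37 and 0.18 without the farthest libraries. These values are descriptions of the highest of many correlations. A pair of abundant RNAs, chosen after their values were seen, were also compared with the main adult genes. *Gm26917* took between 7.47% and 13.9% of a library, and its lowest values were in replicate 3 of K238R-labelled libraries and of K412R, which were also lowest in adult globins. Its r with *Hba-a1* was 0.70 (permutation p = 0.0121, adjusted over 6 pairs 0.0182), with Spearman's rho 0.58 (permutation p = 0.0523, adjusted 0.0628), and r was 0.79 without the farthest libraries and 0.88 after subtraction of the group means. For *Gm15564* and *Hba-a1*, r was 0.88 (permutation p = 0.00053, adjusted 0.00318) and rho 0.73 (permutation p = 0.00961, adjusted 0.0288), and r was 0.63 without the farthest libraries and 0.96 after subtraction of the group means. For *Hbb-bs*, the correlation with *Gm26917* did not pass (r = 0.54, permutation p = 0.0716, adjusted 0.0716, and rho = 0.38, permutation p = 0.217, adjusted 0.217), and r with *Gm15564* was 0.81 (permutation p = 0.00238, adjusted 0.00476) but 0.42 without the farthest libraries. Their part in the globin levels was not tested.

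Some transcripts of nucleated red cell precursors had few counts beside those of the adult globins, whereas other regulators of the same list had more. *Gata1*, the master regulator of red cell genes, and *Gfi1b* had 6 counts each in all 12 libraries, and *Klf1*, the activator of adult beta globin, had 47. *Ahsp*, which stabilizes free alpha chains, had 77, and *Rhag* had 6. These 5 genes, and *Cldn13*, *Hbb-bh2*, *Hbq1a*, *Hbq1b*, *Alas1*, *Zfpm1*, *Lmo2* and *Epor*, were named after their values were seen. Among the other regulators, *Zfpm1* had 4483 counts, *Lmo2* 2614, *Tal1* 2537, *Myb* 2426 and *Epor* 222. The number of precursors was not tested. *Cldn13*, which marks mouse red cell precursors, and *Hbb-bh2* had no counts in any library. Among the minor globins, *Hbq1a* had 29 counts and *Hbq1b* 9, while *Mb*, the muscle globin, ranged from 0.489 to 45.2 CPM.

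Other genes of the red cell with enough counts to be tested were mostly those that other tissues use too. The rest of the list fell below the filter on low counts, and their differences between groups are not given here. Of the 25 genes of the red cell membrane and of terminal maturation, 12 were tested and none passed the adjusted threshold in any of the 5 comparisons with edgeR. In WT against ET, 10 of the 12 had a log2 fold change above 0, against 49.2% of all genes, and the median was 0.46. An unadjusted p under 0.05 was found for 5 higher and 2 lower genes of the 12, and for 5357 of all 18405 genes in either direction. DESeq2 called *Xk* (adjusted p = 0.0259), *Sptb* (0.0379) and *Ank1* (0.0372) in WT against ET, *Xk* in K238R-labelled libraries against WT (0.00882), and *Xk* (0.0246), *Ank1* (0.0216) and *Tmod1* (0.0128) in K412R against WT. *Tmod1*, an actin filament capping protein, had 16.1 ± 10.4 CPM in WT and 4.20 ± 1.86 in ET (log2 fold change 1.98, adjusted p = 0.112), and *Ank1*, which anchors band 3, had 43.1 ± 14.2 and 21.6 ± 9.85 (1.03, adjusted p = 0.115). *Sptb* (beta spectrin) had 69.9 ± 20.9 and 39.6 ± 14.9 CPM (0.86, adjusted p = 0.114). *Epb41* (protein 4.1) had the opposite sign, with 118 ± 20.0 CPM in WT and 185 ± 68.5 in ET (-0.63, adjusted p = 0.145), and *Add2* (beta adducin) had 159 ± 14.8 and 137 ± 11.7 (0.25, adjusted p = 0.175). Nerve and muscle cells also use these cytoskeletal genes. Of 11 genes of teratoma tissues, 6 had a log2 fold change above 0 in WT against ET, and 8 had an unadjusted p under 0.05 in either direction. The neuronal gene *Map2* had 1050 ± 191 CPM in WT and 714 ± 160 in ET (0.59, adjusted p = 0.106). *Col2a1* (-1.12, adjusted p = 0.111) and *Nanog* (-2.26, adjusted p = 0.106) were among those below 0. DESeq2 called *Map2* and *Krt14* higher and *Col2a1* and *Nanog* lower, against 10.5% of all genes in either direction. The part of other tissues in these values was not tested.

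The other genes of heme synthesis had medians near 0. Of the 13 genes of heme synthesis and iron import, all were tested and none passed the adjusted threshold in any comparison with edgeR, and the median log2 fold change was -0.04 in WT against ET, 0.01 in K238R-labelled libraries against WT and 0.03 in K412R against WT. DESeq2 called 1 of them in 1 comparison, *Urod*, in WT against ET (log2 fold change -0.33 in edgeR, DESeq2 adjusted p = 0.0484). *Alas1*, the form of the first enzyme used outside red cells, had a log2 fold change of 0.03 in WT against ET (adjusted p = 0.882). *Tfrc*, the transferrin receptor, had 78.1 ± 18.5 CPM in WT and 87.3 ± 6.96 in ET, and *Fech*, which inserts iron into heme, had 33.5 ± 2.02 and 28.9 ± 2.38 (0.24, adjusted p = 0.147). *Alad* (0.08, adjusted p = 0.675) and *Uros* (0.38, adjusted p = 0.168) did not pass either, and *Fech* and *Uros* had the sign of *Alas2* in K238R-labelled libraries (-0.32 and -0.32) and in K412R (-0.21 and -0.25) against WT.

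Of 15 regulators of blood progenitors and red cells, 11 were tested and none passed in any comparison with edgeR. The most abundant were *Sox6* (59.2 to 91.4 CPM), *Kit* (50.5 to 72.1) and *Bcl11a* (29.1 to 45.6), which are also used outside blood, as are *Tal1* and *Lin28b*. *Myb*, which acts in blood progenitors, had 15.9 ± 2.41 CPM in WT, 10.7 ± 4.92 in ET, 6.96 ± 0.40 in K238R-labelled libraries and 12.0 ± 3.94 in K412R, and its log2 fold change was -1.23 in K238R-labelled libraries against WT (adjusted p = 0.100 with edgeR and 0.00423 with DESeq2). DESeq2 also called *Gata2* in that comparison (adjusted p = 0.0151) and *Sox6* in K412R against WT (0.0133).

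Markers of other cells that bring or carry blood were read beside these results. The 8 endothelial markers, of which none was at 0, summed to between 154 and 283 CPM in ET, 246 and 277 in WT, 175 and 203 in K238R-labelled libraries and 198 and 245 in K412R. All 8 had a log2 fold change above 0 in WT against ET (median 0.51, 4 at an unadjusted p under 0.05, against 14% of all genes, and none called with edgeR), and that of *Kdr*, a receptor for vascular growth factor, was 0.57 (adjusted p = 0.109 with edgeR and 0.0325 with DESeq2). In K238R-labelled libraries against WT none of the 8 was above 0 (median -0.51). Of the 8, 5 were lower at an unadjusted p under 0.05, against 9.64% of all genes. In K412R against WT 1 was above 0 (median -0.41), and 2 were lower at an unadjusted p under 0.05, against 12.5% of all genes. DESeq2 called *Tek* and *Cldn5* in both and *Tie1* in K238R-labelled libraries against WT, and edgeR none. Over all genes, DESeq2 called 4.13% in K238R-labelled libraries and 9.26% in K412R against WT. Of the 10 leukocyte markers, *Ly6g* was at 0, and the sum lay between 160 and 223 CPM in ET, 162 and 277 in WT, 125 and 188 in K238R-labelled libraries and 186 and 193 in K412R. The 6 platelet markers summed to between 4.74 and 11.2 CPM in all libraries, with *Pf4* the highest. DESeq2 called 1 leukocyte marker, *Ptprc*, in K238R-labelled libraries against WT (adjusted p = 0.0114). The part of vessels in the globin differences was not tested, and blood retained at dissection was not recorded in the sources used here. Of 9 markers of yolk sac endoderm and liver, tissues that surround red cell formation in the embryo, *Rbp4* was higher in K412R than in WT (7.14 ± 1.28 and 2.80 ± 0.88 CPM, log2 fold change 1.33, SE 0.25, adjusted p = 0.0267), and none of the other 6 tested passed with edgeR. Of the others, *Afp* had a log2 fold change of 0.33 (adjusted p = 0.673), and *Alb* had 0 to 5 counts in a library. The paper used *Rbp4* as a neural marker in teratomas, repressed in WT and recovered in the mutants by RT-qPCR. DESeq2 also called *Rbp4* in WT against ET (adjusted p = 0.00747) and in K238R-labelled libraries against WT (0.0167), and *Cubn* in WT against ET (0.021).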

How the data were processed

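Polyadenylated teratoma RNA was prepared with a CORALL kit and sequenced as read pairs. The authors used fastp for trimming, STAR for mapping and Salmon for quantification, and deposited estimated counts per gene for each library, without normalization. The submitters' processing notes name GRCm39 and also list GATK, and their versions are not reported here. The deposited estimated counts were whole numbers. They were scaled to CPM on library totals and tested with edgeR 4.0.16 in R 4.3.3 (TMM scaling, filterByExpr by group, glmQLFit and glmQLFTest with default options, 1 mean per group, all 12 libraries), with Benjamini-Hochberg adjustment over 18405 genes. DESeq2 1.42.0 was the alternative tool.

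The design named no option for glmQLFit. After the data were seen, 8 other combinations of its robust and legacy options, of estimateDisp and of library size handling were compared by how many genes each called, in part to match earlier counts for these data. The default was kept, and the range of calls is given in the closing section. Correlations used log2(CPM + 1), 100000 permutations and, within groups, all 1296 rearrangements. Wilson intervals were at 95%. The fit was tested on simulated data. Sequences were taken from RefSeq (GRCm38.p6), and coding lengths and identities from a GRCm38 annotation, so no coordinate of the counts' own build is given.

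All 9 genes were named. From each further list, genes past the adjusted threshold were named, or otherwise the 3 with the highest mean CPM, with the 3 of widest range added for the 3 blood lists; those not given above did not pass, and some genes these rules name are not reported here. Members and lists were chosen with earlier results of these data known. The labels do not tie replicate numbers to a shared batch. Of 18 same-numbered pairs, 6 had a correlation of deviations above 0.1 (range -0.53 to 0.42). All 3 pairs did for ET with K238R-labelled libraries (0.14, 0.37 and 0.20), the only groups where numbers paired the samples by that measure, and there no gene was called with or without the replicate block.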

Additional observations from a re-analysis of the deposited data

How the results depend on the processing

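The count of genes called among those tested of the 9 stayed at 0 in all 5 comparisons under RLE scaling, library totals, DESeq2, no filter, fits of 2 groups, summed copies, the replicate block and the added options of glmQLFit. It became 1 in WT against ET without ET replicate 2 (range 0 to 1 over the leave-one-out fits) and without ET replicate 2 and WT replicate 1 together (1, *Hba-a2*), and 1 in K412R against WT in the latter fit (*Hbb-y*, which passed the filter there and is not among the 7). With each library left out in turn, log2 fold changes that changed sign spanned, in K238R-labelled libraries against ET, -0.49 to 1.10 for Hba-x, -0.26 to 0.41 for Hba-a1, -0.24 to 0.39 for Hbb-bs, -0.12 to 0.45 for Hbb-bt, -0.46 to 0.26 for Alas2 and -0.80 to 0.022 for Slc4a1, and in K412R against ET, -0.69 to 0.63 for Hba-x, -0.39 to 0.33 for Hba-a1, -0.61 to 0.40 for Hba-a2, -0.56 to 0.083 for Hbb-bs, -0.53 to 0.26 for Hbb-bt and -0.38 to 0.34 for Alas2. *Hba-x* spanned -1.65 to 2.72 in WT against ET, -2.24 to 1.78 in K238R-labelled libraries against WT and -2.64 to 1.31 in K412R against WT. Under the replicate block the values that changed sign were *Hba-a1* (-0.019) and *Hbb-bs* (-0.044) in K238R-labelled libraries against ET and *Hba-x* in K412R against ET (0.17), and no call among the 7 changed. Over all genes the replicate block called 917 in WT against ET, 208 in K238R-labelled libraries against WT and 1155 in K412R against WT. Without ET replicate 2 and WT replicate 1, *Hba-x* was -0.23 and *Alas2* 0.02 in K238R-labelled libraries against ET, and *Hba-a1* was 0.25, *Hba-a2* 0.37 and *Alas2* 0.05 in K412R against ET, where *Hba-x* was -0.71. The correlation of *Hba-x* with *Hba-a1* turned to -0.23 without the farthest libraries, and 8 of 36 pairs passed after the group means were subtracted, against 18. The cause was not tested.

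Counts over all genes moved far more. WT against ET called 9 genes, between 0 and 5820 with a library left out and up to 7006 without ET replicate 2 and WT replicate 1. The libraries labelled K238R against WT called 32, between 2 and 807 with a library left out and 14 to 2109 otherwise, and K412R against WT called 372, between 10 and 1540 and 295 to 3399. K412R against ET called 0, and up to 369. Over the 9 options of the edgeR fit, chosen after seeing the data, these counts were 8 to 9, 32 to 52 and 372 to 428, and none called any of the 7 genes. DESeq2 called 1871, 785 and 1649. Leaving out 2 libraries, leaving out the 2 abundant RNAs and the TMM-scaled overlap counts were also added after seeing the data. Depth limits the embryonic globins, which rest on few counts, and read sharing limits the split within the adult pairs.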
